A study of Mus musculus with 285 samples.

Results

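Gbp2b encodes an interferon-inducible guanylate-binding protein, listed in older mouse annotation as Gbp1. It was followed here across skeletal muscle of 285 F2 mice on a 2-colour oligonucleotide array. All probes annotated to Gbp2b were taken. They came to 1 probe of 23560, which gives 1 of 11622 named genes, and it had a value on every array. The gene was chosen because its values in these mice spread widely, so its own distribution is described without a test. By SD over mice it ranked 8th among named genes (SD 1.73 log2 units, against a median of 0.21).

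Every mouse was an F2 that goes back to C57BL/6J and C3H/HeJ, 2 inbred strains, through F1 parents of both cross directions, and so carries its own mixture of the 2 genomes. Females and males were used. Chow of 4% fat was given until the age of 8 weeks. A Western diet (fat 42%, cholesterol 0.15%) replaced it for the last 12 weeks, and muscle was taken at the age of 20 weeks from mice fasted for 12 hours. Each array compared 1 mouse (Cy3) with a common pool (Cy5), and the values were read as the log ratio of mouse over pool, converted to log2. The labels give no sex, genotype or cross direction for single mice and do not name the muscle, so there was 1 group and the comparisons below are between genes over mice. A ratio to a pool of the same tissue holds no absolute level, so the tissue label could not be checked against marker levels, and fewer cells of a type and less RNA per cell cannot be told apart.

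Guanylate-binding proteins are large GTPases that interferons, above all interferon gamma, switch on in most cell types. They assemble on intracellular bacteria and parasites and on the vacuoles that hold them. In mice the genes lie in clusters on chromosomes 3 and 5, and Gbp2b sits between Gbp3 and Gbp2 in the cluster on chromosome 3. Type I interferons act largely through a promoter element called ISRE, and interferon gamma through an element called GAS. Rtp4, a receptor-transporting protein that type I interferon induces, served as the reference gene for the interferon response.

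The 3 neighbouring members differ in what the array shows below, so the bases upstream of each are given from RefSeq on build GRCm38.p6. Each run is the plus strand up to the base before the first annotated base of the gene, and capitals mark matches to the core of the ISRE, searched as GAAA, any 2 bases and GAAA on either strand. All lie on the minus strand and so read TTTC, 2 bases and TTTC here.

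Gbp2b, chr3:142594597-142594815: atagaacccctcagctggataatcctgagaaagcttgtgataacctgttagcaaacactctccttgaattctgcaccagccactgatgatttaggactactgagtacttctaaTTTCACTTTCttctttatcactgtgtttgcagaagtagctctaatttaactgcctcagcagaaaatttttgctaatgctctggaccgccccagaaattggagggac

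Gbp2, chr3:142620413-142620662: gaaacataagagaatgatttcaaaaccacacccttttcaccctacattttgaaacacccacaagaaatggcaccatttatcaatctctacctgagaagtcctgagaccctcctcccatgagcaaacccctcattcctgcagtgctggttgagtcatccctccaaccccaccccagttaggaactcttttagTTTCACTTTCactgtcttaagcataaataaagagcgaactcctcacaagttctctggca

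Gbp3, chr3:142559794-142560015: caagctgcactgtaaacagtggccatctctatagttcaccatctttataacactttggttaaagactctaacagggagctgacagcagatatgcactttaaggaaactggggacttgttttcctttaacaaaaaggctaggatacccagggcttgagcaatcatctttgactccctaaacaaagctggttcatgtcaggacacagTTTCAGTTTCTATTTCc

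Gbp2b and Gbp2 carried the same 10 letters, TTTCACTTTC, 106 and 59 bases before the first annotated base. Gbp3 had 2 overlapping matches, 17 and 11 bases before it. Of 32851 RefSeq promoters, 2.98% held this core on either strand within 250 bases upstream. The GAS core TTCNNNGAA, which 7.02% of the promoters held, had no match in the 3 windows. These letters are a description of the C57BL/6J reference sequence and were not read in these mice.

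The Gbp2b values fell into 2 separate clusters of mice. Over all 285 mice the log2 ratio ran from -3.94 through a median of 0.14 to 4.26. A normal mixture with 2 components gained 171 in BIC over a single one, with means 4.49 times the larger SD apart. The lower cluster held 71 mice, 24.9% of all (95% Wilson interval 20.2 to 30.2%), with values from -3.94 to -1.92, a median of -3.04 and a mean of -3.06 ± 0.50 (SD). The higher cluster held 214 mice (75.1%), with values from -1.74 to 4.26, a median of 0.46 and a mean of 0.55 ± 0.80 (SD). The medians lay 3.50 log2 units apart, which is 11.3-fold if the deposited values are base-10 logs, 2.87-fold if natural logs and 2.08-fold if base 2. The base and sign are not given in the sources used here. With every array's sign turned, the 71 mice would be the higher cluster, while the slopes and correlations between genes below would stay as they are.

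Few mice lay between the clusters. Just inside the lower cluster were mouse 280 at -2.01 and mouse 282 at -1.92, and just outside it were mouse 355 at -1.74, with a posterior of 0.522 for the higher cluster, and mouse 79 at -1.02. At the other end mouse 333, at 4.26, stood above mouse 228 at 2.77 and mouse 310 at 2.57. Applied in the same way, the cluster rule found 1 cluster each for Rtp4, Gbp2, Gbp3, Gbp8, Ifi44l, Stat2 and Irf1. Gbp2b, read from 1 probe, was thus the member with separated ratios among the 4 of 11 guanylate-binding protein genes that were measured. Probe sequences were not used here, so a difference in RNA level and a difference in binding to the probe cannot be told apart. The arrays hold no intensities here, so whether the values of the lower cluster lay above background is not known.

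**Figure D1:**
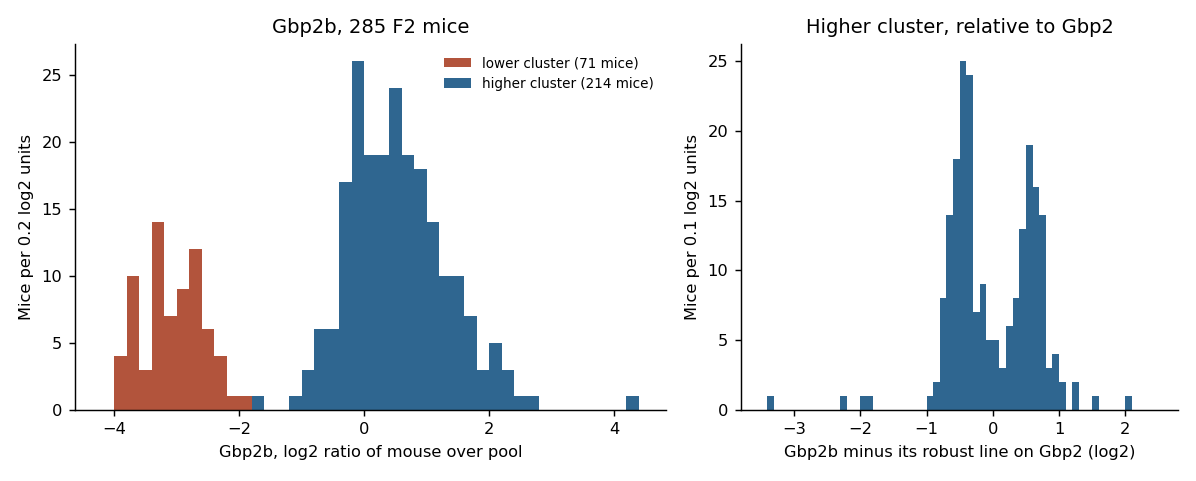
Left, number of mice per 0.2 log2 units of Gbp2b (mouse over pool), with the 71 mice of the lower cluster in red and the 214 of the higher cluster in blue. Right, for the higher cluster, number of mice per 0.1 log2 units of the distance of Gbp2b from its robust line on Gbp2. The left histogram has an almost empty stretch between -1.92 and -1.02, and the right one has peaks near -0.45 and 0.56 with 10 mice within 0.1 of 0.

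Both clusters occurred throughout the mouse numbers, the only order the labels give. Among the 16 runs of 20 numbers, the share of mice in the lower cluster was least in numbers 111 to 130 (1 of 15 mice, 6.67%) and greatest in numbers 71 to 90 (8 of 18, 44.4%). Fitted alone, lower-numbered mice had 25.2% in the lower cluster, and the 142 with higher numbers had 25.4%. Within the higher cluster the level did move with the number: the median per run was between -0.01 and 0.01 in numbers 131 to 210 and reached 1.55 in numbers 291 to 310. What the numbers stand for is not in the labels, so results are also given by number below.

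**Figure D2:**
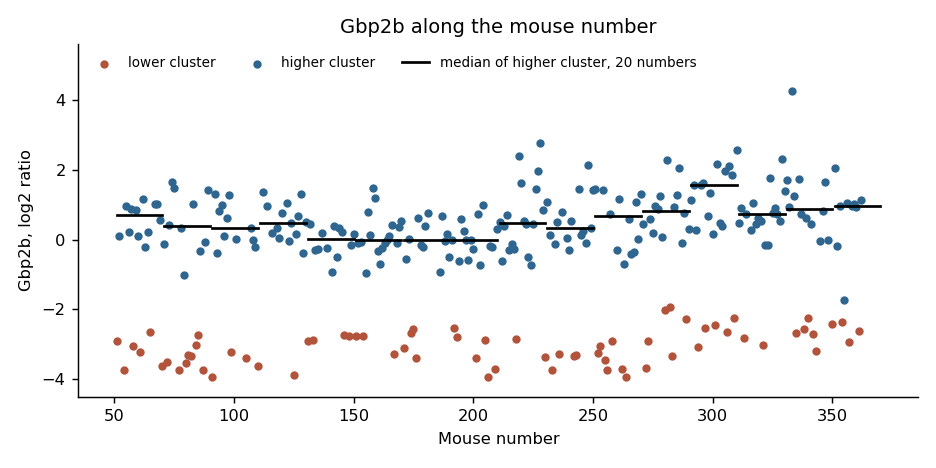
Gbp2b log2 ratio of each mouse (1 point per mouse) against its number, coloured by cluster, with the median of the higher cluster in each run of 20 numbers as a black bar. Red points lie along the whole axis, and the black bars are highest at numbers 291 to 310, at 1.55.

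Within the higher cluster, the values of Gbp2b set against Gbp2 lay mostly in 2 bands. The bands were noticed in plots of these values and then fitted on them, so the fits describe them and test nothing. Gbp2, the next measured gene on the chromosome and a GTPase of the same family, ran from -1.56 through 0.03 to 2.50 over all mice. Around a robust line with a slope of 0.87, the 214 mice formed 2 bands, centred at -0.45 (113 mice, SD 0.19) and at 0.56 from the line (95 mice, SD 0.24), with 6 mice in a broad remainder. The bands lay 1.01 log2 units apart, which is 4.19 times the larger SD, and BIC rose by 97.0 with 3 components and by 16.8 with 2. Only 10 mice lay within 0.1 of the line, against 48 and 27 within 0.1 of the band centres. Fitted by number, the line had a slope of 1.16 in the higher-numbered and 0.43 in the lower-numbered mice of the cluster. No slope was fitted for each band. In the higher-numbered mice the bands were 1.06 apart with 1 of 107 mice within 0.1 of the line. The remaining component of that fit held 2 mice with an SD of 0.0055, so it was no broad remainder. In the lower-numbered mice the bands were 0.89 apart with 11 of 107 within 0.1, and there the gain of 6.72 in BIC missed the minimum of 10. Around lines on Gbp3 and Rtp4 the same fit gave gains of 15.4 and 4.59, with bands 2.58 and 2.54 of the larger SD apart, under the minimum of 3. In the lower cluster no gain was found with Gbp2 (the BIC changed by -11.5).

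**Figure D3:**
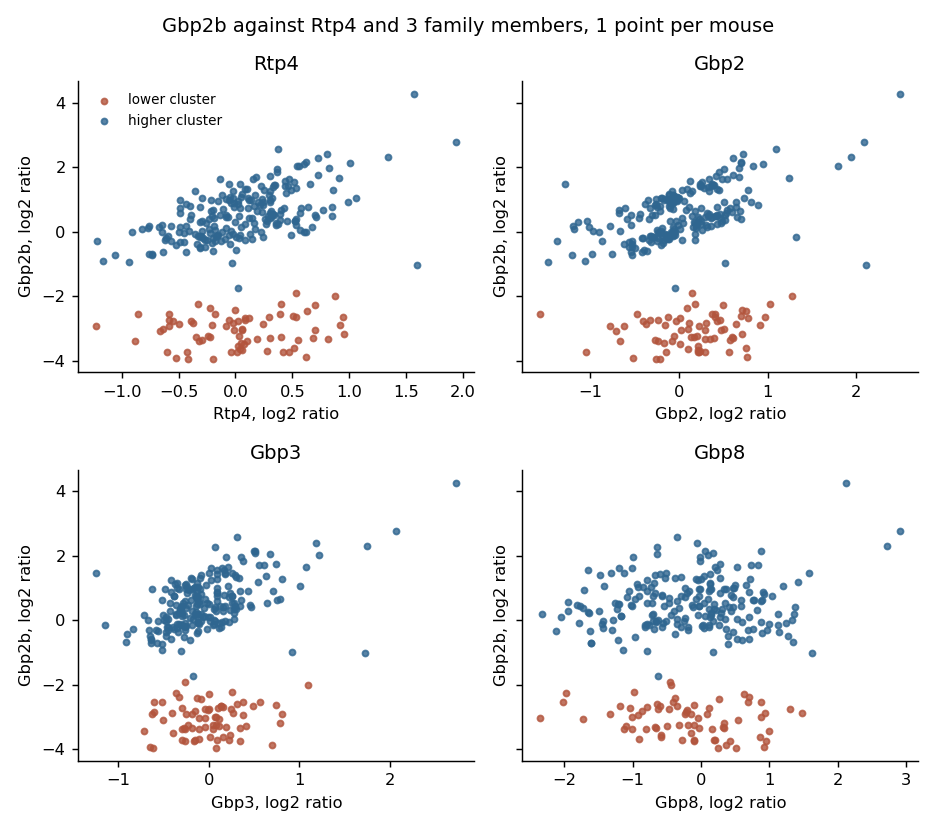
Gbp2b log2 ratio (vertical) against the log2 ratio of Rtp4, Gbp2, Gbp3 and Gbp8 (horizontal, 1 panel each), 1 point per mouse, coloured by cluster. Blue points slope upward with Rtp4, Gbp2 and Gbp3 (r of 0.586, 0.573 and 0.558) and lie mostly in 2 bands against Gbp2. Red points are low because the clusters were cut on Gbp2b, and they do not reach the highest values of Rtp4, Gbp2, Gbp3 or Gbp8.

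In the higher cluster Gbp2b rose with Rtp4. Rtp4 ran from -1.22 through 0.04 to 1.94 over all mice. In the 214 mice of the higher cluster Pearson's r was 0.586 and Spearman's rho 0.567, each with a permutation p of 1e-05, the smallest that 100000 shuffles can give (adjusted p = 2.2e-05 over the 11 relations tested). With the 2 mice of most extreme Rtp4 left out, r was 0.618. By number it was 0.380 among the lower 107 mice and 0.674 among the upper 107, and 0.648 in the 163 mice outside numbers 51 to 90 and 271 to 310. Per log2 unit of Rtp4, Gbp2b was 0.97 ± 0.09 (SE) log2 units higher.

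In the 71 mice of the lower cluster r with Rtp4 was 0.106 and rho 0.0912 (permutation p of 0.378 and 0.447, adjusted 0.378 and 0.491), and Gbp2b differed by 0.11 ± 0.12 (SE) per log2 unit of Rtp4. Rtp4 itself varied as much in both clusters, with an SD of 0.48 in the lower and 0.49 in the higher. The difference between the slopes was not tested. The clusters were cut on Gbp2b itself, so a mouse in which Gbp2b had risen far would be counted in the higher cluster. Mouse 79, with high Rtp4, lay in the higher cluster at a Gbp2b of -1.02. The weak relation in the lower cluster therefore cannot decide whether Gbp2b follows Rtp4 there.

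The other measured guanylate-binding proteins ran from close companions to nearly unrelated. Gbp3, on the other side of Gbp2b, ran from -1.24 through -0.10 to 2.73. In the higher cluster r was 0.573 with Gbp2 and 0.558 with Gbp3, each with a permutation p of 1e-05 (adjusted 2.2e-05), and rho was 0.549 and 0.517. With the 2 mice most extreme in the gene concerned left out, r was 0.591 with Gbp2 and 0.468 with Gbp3. By number, r was 0.255 and 0.156 among the lower 107 mice of that cluster, and 0.686 and 0.719 among the upper 107. In the lower cluster r was 0.196 with Gbp2 and 0.146 with Gbp3, and neither passed (adjusted permutation p of 0.127 and 0.245). The cut on Gbp2b limits these values as it does those with Rtp4. Gbp8, a member encoded on chromosome 5 that ran from -2.35 through -0.12 to 2.91, gave 0.152 in the higher cluster (adjusted permutation p = 0.0417). Its rho was only 0.0451 (adjusted 0.509), and with the 2 mice of most extreme Gbp8 left out r was 0.0797, so that value rests on few mice. The family members followed Rtp4 as well, for comparison over all 285 mice: r was 0.780 for Gbp2 and 0.706 for Gbp3, with rho of 0.749 and 0.665 (each with a permutation p of 1e-05). For Gbp8 r was 0.250 (permutation p of 2e-05) and rho 0.140 (permutation p of 0.0176). Near-identical sequence between family members could let a probe bind more than 1 transcript, and probe sequences were not used here.

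Every other feature was then fitted on Gbp2b with limma, across all 285 mice. Of 21511 features (11621 named genes and 9890 unnamed probes), 250 had an adjusted p below 0.05, which is 1.16%. Of these, 115 rose with Gbp2b (0.535%) and 135 fell (0.628%). Without mouse 333 the count was 150 (0.697%). Of the 250, 138 were named genes and 112 unnamed probes. The unnamed probes 10024401988 and 10024405036 rose with Gbp2b by 0.17 and 0.25 log2 units per log2 unit, and 10024406221 and 10024399149 followed with slopes of -0.20 and -0.07.

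The named genes that tracked Gbp2b over all mice made up a larger share of the genes of its own chromosome than of any other. On chromosome 3, 40 of 537 named genes passed (7.45%; 19 rising and 21 falling), against 92 of 10383 placed on other chromosomes (0.886%). The next highest share was 1.70%, on chromosome 16. Of the 19 named genes with an absolute r of at least 0.3, 17 lay on chromosome 3. The other 2 were Safb, on chromosome 17, and Sox10, on chromosome 15, both named after their values were seen. Linked genes are inherited together in an F2, so genes on one chromosome are not independent of each other.

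Genes near Gbp2b moved in both directions. Dapp1, an adaptor protein of B cell receptor signalling that lies 15 measured genes before Gbp2b, ran from -0.97 through -0.10 to 1.14 and fell by 0.155 ± 0.011 (SE) per log2 unit of Gbp2b (limma adjusted p = 1.12e-30). Adh7, an alcohol and retinol dehydrogenase 12 genes before it, fell by 0.064 ± 0.0053 (limma adjusted p = 2.11e-23). Manba, the lysosomal beta-mannosidase 20 genes before it, and Prss12, the serine protease neurotrypsin 51 genes before it, fell by 0.101 ± 0.0086 and 0.172 ± 0.015. Among those that rose, Ifi44l, an interferon-induced gene 25 genes after Gbp2b, ran from -0.49 through 0.06 to 1.18 and had a slope of 0.080 ± 0.0070 (limma adjusted p = 1.24e-21). Mttp, the microsomal triglyceride transfer protein that loads lipid onto apolipoprotein B, had a slope of 0.108 ± 0.012 at 14 genes before it. Cryz, a quinone reductase, and Ssx2ip, a cell adhesion and centrosome protein, had slopes of 0.042 ± 0.0043 and 0.082 ± 0.0096, at 38 and 20 genes after it. The 2 probes of Cryz differed, with r of 0.346 and -0.0404 in the higher cluster.

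The 20 genes most alike by the naming rule, 12 rising and 8 falling, lay on chromosome 3 in 10 and 8 cases. The rising ones not yet named were Bcar3, Wdr3, Ap1ar, Ptbp2, Lamtor3 and Man1a2 on chromosome 3, Aox1 on chromosome 1 and Tap2, a peptide transporter of MHC class I loading, on chromosome 17. The falling ones not yet named were St7l, Prcc, Gatb and Gucy1a1, with Gucy1a1 as far as 331 genes before Gbp2b. Distance did not order the slopes strictly. Counted in measured genes from Gbp2b, with those before it negative, the genes that passed ran from -437 to 38, where 490 genes before it and 47 after it were measured. Of the 40 nearest genes 8 passed (20%), against 9 of 107 at 21 to 100 genes away (8.41%), 10 of 100 at 101 to 200 (10%) and 13 of 290 beyond (4.48%). Directly beside Gbp2b, Gbp3 (limma adjusted p = 0.0591), Gbp2 (0.165), Gtf2b (0.134) and Pdlim5 (0.889) did not pass over all mice. The 4 averaged probes of Gtf2b differed in direction, with r of 0.212, -0.339, 0.204 and 0.365 in the higher cluster. Rtp4 had a slope of 0.068 ± 0.016 (SE) over all mice (limma adjusted p = 0.0089). Its call was lost in lower-numbered mice (0.048, adjusted p = 0.954), in higher-numbered mice (0.064, adjusted p = 0.284) and with 1 component in the fit (0.044, adjusted p = 0.151).

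**Figure D4:**
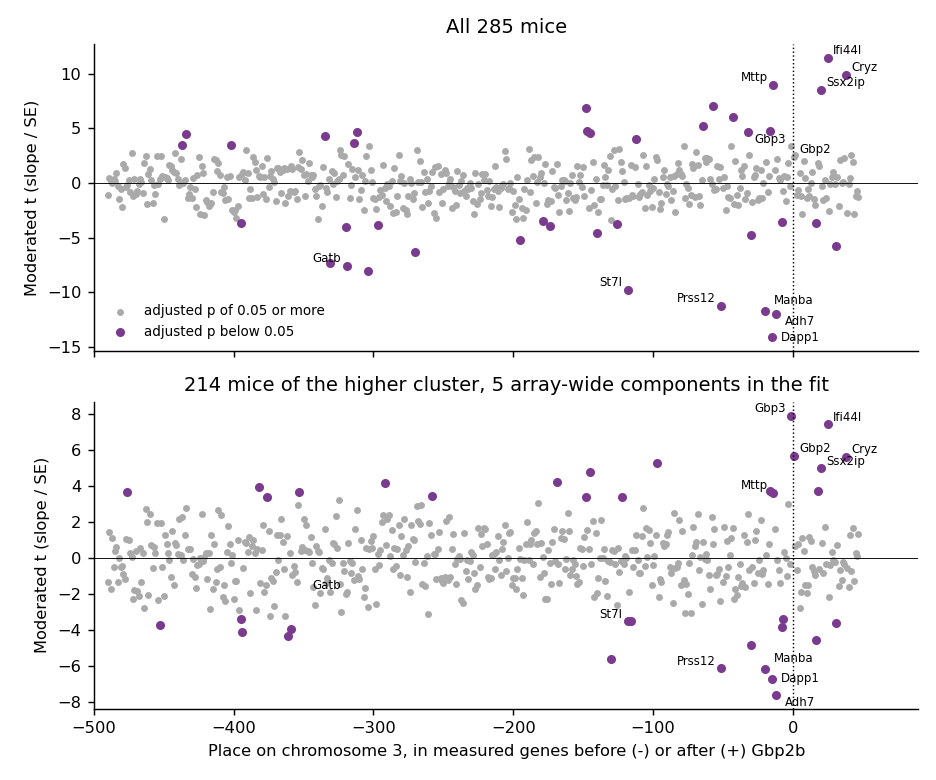
Moderated t of each named chromosome 3 gene on Gbp2b, against its place in the order of measured genes before (negative) or after (positive) Gbp2b, for all 285 mice (top) and for the 214 mice of the higher cluster with 5 array-wide components in the fit (bottom). Purple points passed at an adjusted p below 0.05, 40 in the top panel and 36 in the bottom panel, and Gbp3 and Gbp2 passed in the bottom panel only.

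The chromosome 3 slopes were next set within clusters, which hold the same mice. Dapp1 had a slope of -0.10 ± 0.03 (SE) in the higher and -0.05 ± 0.08 in the lower cluster (limma adjusted p of 0.00111 and 0.936). Of the 40 chromosome 3 genes called over all mice, 38 kept their sign in the higher and 27 in the lower cluster. The lower cluster had 71 mice against 214 and a narrower spread of Gbp2b (SD 0.50 against 0.80), so its slopes were less precise. In the lower cluster alone limma called 0 of 21511 features (0%), with 1791 at an unadjusted p below 0.05, and 0 with 5 components in the fit (1301 unadjusted). In the same way the 103 measured interferon-related genes gave 13 rising and 1 falling at an unadjusted p below 0.05 there, beside 467 and 509 of all named genes.

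The higher cluster by itself gave a very broad result. Limma called 11483 of 21511 features (53.4%), so that a call there says little about a gene. In these mice Gbp2b correlated with the first array-wide component with an absolute r of 0.440, against 0.156 over all mice and 0.117 in the lower cluster, and that component held 15.7% of the variance. What it stands for is not known. With 1 component in the fit 1938 features passed (9.01%), and with 5 components 454 (2.11%), of which 241 rose (1.12%) and 213 fell (0.99%). The fit with 5 components is used from here for single genes. It was chosen after the broad result was seen.

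With 5 components in the fit, many members of the interferon-related lists rose with Gbp2b in the higher cluster. Of 103 measured members of 7 interferon-related lists, 44 rose and 0 fell in limma (57 and 2 at an unadjusted p below 0.05), beside 1.12% of all features rising. At an unadjusted p below 0.05 were 3082 of 21511 features, rising and falling together. The other rising named genes, of 162 in all, lay outside these lists. The 44 lay on 15 chromosomes, 4 of them on chromosome 3. Over all 285 mice 19 of the 103 rose, beside 0.535% of features, on 11 chromosomes, and 9 did so without mouse 333, beside 0.316%. Of those 19, 15 were among the 44. The 20 genes with the strongest relation in this fit, named after their values were seen, were 14 genes of other chromosomes and 6 of chromosome 3: Gbp3, Ifi44l, Adh7, Dapp1, Manba and Prss12.

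Among the GTPase families Gbp3 had a slope of 0.28 ± 0.04 (SE) and Gbp2 of 0.21 ± 0.04 per log2 unit of Gbp2b (limma adjusted p of 8.64e-10 and 3.13e-05), while Gbp8 had 0.09 ± 0.09 and did not pass. Of 8 immunity-related GTPases, which act on pathogen vacuoles beside the guanylate-binding proteins, 6 rose. Tgtp1 ran from -2.54 through -0.40 to 4.46 and had the steepest slope named here, 0.59 ± 0.08 (limma adjusted p = 3.57e-09). Ifi47 had 0.22 ± 0.04, and Igtp, Iigp1, Irgm1 and Irgm2 also rose. The 2 probes of Igtp and of Iigp1 differed in size, with r in the higher cluster of 0.447 and 0.130 for Igtp and of 0.436 and 0.0979 for Iigp1.

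Of 35 type I interferon antiviral genes 20 rose. Parp14, an ADP-ribosyltransferase, ran from -1.19 through -0.04 to 2.88 and had a slope of 0.27 ± 0.03 (limma adjusted p = 7.74e-10). Oas2 and Oasl2, of the oligoadenylate synthetase family that senses double-stranded RNA, had 0.23 ± 0.03 and 0.31 ± 0.04, and Rtp4 had 0.25 ± 0.04 (limma adjusted p of 9.67e-09, 1.1e-08 and 1.46e-08). Ifit2, which binds foreign RNA, had 0.18 ± 0.03. The rise was not general to the list. Isg15, a ubiquitin-like modifier, had 0.04 ± 0.02 and Mx1, a dynamin-like GTPase, -0.04 ± 0.02, and neither passed (limma adjusted p of 0.376 and 0.457).

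Of 17 genes of interferon receptors and signalling 4 rose: Stat2 (0.17 ± 0.03), the transcription factor Irf7 (0.19 ± 0.03), the type I receptor chain Ifnar2 (0.07 ± 0.02) and the RNA sensor Tlr3 (0.09 ± 0.03). Irf9, the partner of Stat2, had 0.04 ± 0.01 and did not pass (limma adjusted p = 0.156), nor did Jak1, Jak2, Tyk2, Ifnar1 or either interferon gamma receptor chain. Of 9 measured ligands 0 passed in limma (1 fell at an unadjusted p below 0.05), Ifng with 0.0004 ± 0.021 and Ifnb1 with -0.01 ± 0.01 among them. Of 15 interferon gamma targets 4 rose: the transcription factor Irf1 (0.19 ± 0.03), the checkpoint ligand Cd274 (0.26 ± 0.05), Socs1 and Fcgr1. The chemokines Cxcl9 and Cxcl10 had 0.15 ± 0.05 and 0.14 ± 0.08 and did not pass (limma adjusted p of 0.149 and 0.398). Of 16 genes of MHC class I and peptide loading 8 rose, the immunoproteasome subunits Psmb8, Psmb9 and Psmb10 among them, with Psmb9 at 0.17 ± 0.03.

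**Figure D5:**
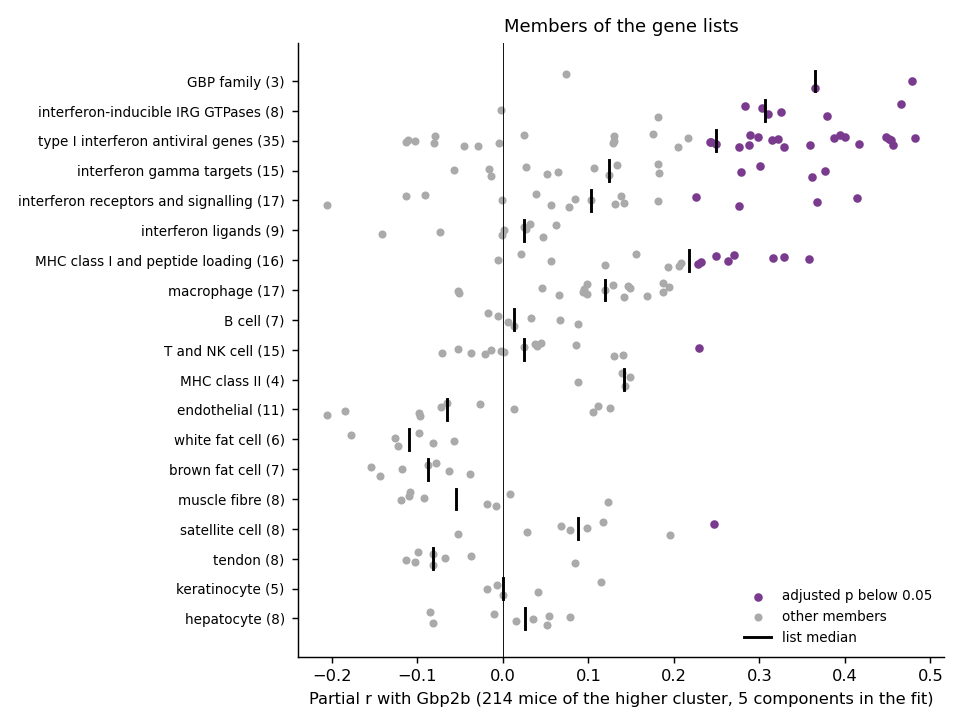
Partial r of each measured list member with Gbp2b, in the 214 mice of the higher cluster with 5 array-wide components in the fit; 1 row per list with its number of members, a black bar at the list median and purple points for members at an adjusted p below 0.05. The 7 interferon lists hold 44 purple points and the 12 lists of cell type markers hold 2; list medians run from 0.365 for the guanylate-binding proteins to 0.025 for the ligands, and macrophage (0.120) and MHC class II markers (0.141) lie as far right as interferon gamma targets (0.124).

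Markers of immune cells, and of some other cell types, moved with Gbp2b in the higher cluster before components were fitted. Of 17 macrophage markers 14 rose and 1 fell, beside 20.3% of features rising and 33.1% falling. Of 103 interferon-related genes 71 rose and 14 fell. The mean log2 ratio of the 17 macrophage markers ran from -0.89 to 0.87 over mice, and ratios do not show which of them are near 0 in level. Of 7 B cell markers 4 rose and 1 fell, of 15 T and NK cell markers 6 rose and 5 fell, and of 4 MHC class II markers 3 rose. The movement was not particular to immune cells. Of 8 tendon markers 5 rose and 0 fell, and of 11 endothelial markers 4 rose and 2 fell. Over all 12 cell type lists 42 of 104 markers rose and 19 fell. With 5 components in the fit 0 of 17 macrophage and 0 of 7 B cell markers passed in limma (7 and 0 rose at an unadjusted p below 0.05), with median partial r of 0.120 and 0.0127. Of the 4 MHC class II markers 0 passed in limma (3 rose at an unadjusted p below 0.05), with a median of 0.141, while 44 of the 103 interferon-related genes still rose. Over all features in this fit, 3082 of 21511 had an unadjusted p below 0.05 in limma, rising and falling together. The shares of macrophage and MHC class II markers at that level were larger. In that fit 2 of 104 markers over the 12 cell type lists rose (1.92%), close to the 1.39% of all named genes. Infiltrating cells and muscle cells as sources of Gbp2b cannot be told apart in bulk RNA.

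With Gbp2 added to the fit, what remained of Gbp2b in the higher cluster again led back to chromosome 3. Of 21510 features 45 passed in limma (0.209%), and with Gbp2 and 5 components 46 (0.214%). In the latter 15 of 536 named genes of chromosome 3 passed (2.80%), against 13 of 10383 elsewhere (0.125%). Of the 15, 12 lay within 100 measured genes of Gbp2b, as did 146 of the 536. Of the same 15, 13 were among the 40 chromosome 3 genes called over all mice, which include these mice. The first 8 genes by absolute partial r were all on chromosome 3: Adh7, Dapp1, Manba, Ifi44l, Cryz, Prss12, Ssx2ip and Zzz3. Dapp1 had a slope of -0.23 ± 0.03 (SE), Adh7 of -0.11 ± 0.01 and Ifi44l of 0.15 ± 0.02 (limma adjusted p of 9.72e-10, 3.53e-11 and 7.54e-08). Of 102 interferon-related genes 10 still rose, beside 0.126% of features rising. Among them were Gbp3 and Ifi44l, both of chromosome 3, and Oas2, Parp14, Oasl2, Tgtp1 and Rtp4 of other chromosomes. Rtp4 had a slope of 0.14 ± 0.03 (limma adjusted p = 0.00902).

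Of the 20 genes with the strongest relation to Gbp2b in the higher cluster, 16 had a listed promoter and 4 of these held the ISRE core (25%), beside 308 of 8674 measured genes with a listed promoter (3.55%). The genes were chosen by their values, so the shares are given without a test.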

How the data were processed

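The deposited table holds 1 value per probe and array, read as the log10 ratio of mouse over pool; per the labels each mouse carried Cy3 and the pool Cy5. The scanner, background correction and normalization are not given in the sources used here. Array medians of -0.0222 to 0.0173 show centring before deposit, and values end at exactly 2 and -2. Of all array pairs, 2.48% had r under -0.3, the lowest being -0.745. A pool of all samples would give a mean linear ratio of 1. Read as mouse over pool, Gbp2b averaged 1.35 if the logs are base 10, 1.01 if natural and 0.986 if base 2; in the reverse direction it averaged 2.80, 1.29 and 1.15. The base was not settled by this.

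The 23510 probes measured on 80% or more of the arrays were kept, missing values (0.0972%) were set to the probe mean, probes of 1 gene were averaged, and values were converted to log2. Symbols came from the platform annotation, updated through Entrez identifiers for 12650 probes; 13653 probes had 1 symbol, 48 several and 9859 none. RefSeq placed 10921 named genes on a chromosome. Its gene order was used, and its coordinates only for the printed sequences.

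Clusters were called by normal mixtures (mclust 6.1.1) where BIC gained over 10, means lay over 3 SD apart and each held at least 5% of mice. Features were fitted on Gbp2b with limma 3.58.1 in R 4.3.3 and Benjamini-Hochberg adjustment over all features, called at an adjusted p below 0.05. Robust lines used MASS. Correlations had two-sided permutation tests. The fit was tested on simulated data. The labels name separate mice, and the number of arrays limits the precision.

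Named genes were the 12 rising and 8 falling with the largest r among called genes of the same sign in both parts of the mouse numbers, family members, up to 3 per list, neighbours and Rtp4; other names are genes of textbook roles or are marked as seen first. The gene, lists and tests were chosen with earlier results of these data known.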

Additional observations from a re-analysis of the deposited data

How the results depend on the processing

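The share of mice in the lower cluster stayed between 22.5 and 25.4% under 6 alternatives, and r of Gbp2b with Rtp4 in the higher cluster between 0.380 and 0.674 under 11. Of the values of single named genes under alternatives, 357 stayed on their side of the threshold. Another 19 lost their call, 4 gained one and 0 changed sign at a call. Apart from Gbp2, Gbp3, Gbp8 and Rtp4, these genes were chosen as called, with the same sign in lower- and higher-numbered mice. Their sign in those parts was thus fixed by the choice, and staying called was favoured by it. These totals therefore do not measure how stable the calls are. The counts that follow moved widely. Over all mice, the 250 called features became 49 in lower-numbered and 51 in higher-numbered mice, 91 with a spline of mouse number, 106 with 1 and 128 with 5 components, 6394 on ranks of Gbp2b, 11406 with the cluster and 82 with Rtp4 in the fit, and 150 without mouse 333. The 40 chromosome 3 genes became 21, 20, 26 outside numbers 51 to 90 and 271 to 310, 173 on ranks and 291 with the cluster. The 19 rising interferon-related genes became 6 with arrays scaled to one spread, 1 and 2 in lower- and higher-numbered mice, 5 with the spline, 4 and 6 with 1 and 5 components, 48 on ranks, 70 with the cluster, 1 with Rtp4 and 9 without mouse 333. In the higher cluster, by alternatives added after seeing the data, 11483 features became 1938 and 454 with 1 and 5 components, 5431 with the spline, 5309 and 967 in lower- and higher-numbered mice, and 45 and 46 with Gbp2 alone and with 5 components. The 293 chromosome 3 genes called there became 80, 36, 150, 138, 36, 13 and 15 in the same order. The 71 rising interferon-related genes became 44 with 5 components, 32 in lower-numbered mice, and 10 and 10 with Gbp2. The parts by number hold fewer mice than the whole. In the higher cluster the counts of 5309 and 967 each came from 107 mice. The causes of these changes in counts were not tested. In the lower cluster, which was cut on Gbp2b itself, r with Rtp4 stayed between -0.0798 and 0.146. No paired analysis was possible because there was 1 group and replicate numbers are shared by no samples. Signal over background is unknown, so a floor under the lower cluster cannot be seen.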
